A study of Mus musculus with 8 samples.

Results

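Vessels in skin are built from endothelial cells, which line them, and from mural cells, the pericytes and smooth muscle cells that wrap them. Here 34 genes used as markers or signals of these cells were followed in cells sorted from mouse back skin. They were chosen by name from the 24421 genes of the expression table, all 34 were found there, and all 34 passed the filter on low values. They comprise 14 pan-endothelial genes, 4 endothelial transcription factor genes, 3 lymphatic genes, 4 vascular ligand genes, 3 pericyte genes and 6 smooth muscle genes.

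All 4 mice were C57BL/6J and carried the ROSA mTmG reporter together with Tyr:CreERT2. With this reporter every cell makes membrane tdTomato until Cre acts, and membrane EGFP from then on. The Cre is driven by tyrosinase sequence and needs tamoxifen, so EGFP marks cells of the melanocyte lineage in which recombination took place, and tdTomato marks all the rest. The mice were given tamoxifen once a day for 10 days from postnatal day 21 and their back hair was removed on day 50. Mice 3 and 4 received UVB, 150 mJ/cm2, over 3 days, while mice 1 and 2 were mock treated under normal light, and back skin was taken on day 54. Sorting gave the groups UV EGFP, no UV EGFP, UV tdTomato and no UV tdTomato, with 2 libraries each. Mice 3 and 4 are replicates 1 and 2 with UV, and mice 1 and 2 are replicates 1 and 2 without UV. Every mouse had both the reporter and the Cre, and every mouse received tamoxifen and depilation. Libraries held 11186363 to 16711981 reads. Mouse 1 had 477 (EGFP) and 1103 (tdTomato) reads of Xist, where no other library exceeded 4. Its Y-linked genes had no more than 9 reads, where all other libraries had 2253 or more, so mouse 1 differs in sex from the other 3 mice, and 1 of the 2 mice without UV differs in sex from both mice with UV.

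The sort labels were checked against marker genes. The 8 melanocyte markers summed to 523784 to 615877 normalized reads in the 4 EGFP libraries, against 2616 to 44454 in the 4 tdTomato libraries. The 5 basal keratinocyte markers summed to 699 to 969 in EGFP libraries and 201432 to 267873 in tdTomato libraries. Endothelial markers were scarce beside these, and Pecam1, Cdh5, Kdr, Tie1 and Emcn together gave 727, 89.0, 186 and 31.4 normalized reads in UV tdTomato replicates 1 and 2 and no UV tdTomato replicates 1 and 2. The same 5 genes gave 2.52, 0, 1.66 and 1.90 in the matching EGFP libraries. In bulk libraries such as these, fewer cells of a type and less RNA per cell cannot be told apart.

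Vascular growth is driven by ligands such as VEGF-A and VEGF-C, which bind receptor kinases (Flt1, Kdr and, on lymphatic vessels, Flt4), and by the angiopoietins, which bind Tek (also called Tie2). Endothelial identity is upheld by transcription factors of the ETS and SoxF families, and many endothelial promoters hold ETS sites, whose core reads GGAA. In skin, capillary loops lie close under the epidermis and vessels grow with the hair cycle. Pericytes are recruited to new vessels through the receptor Pdgfrb, and smooth muscle cells around larger vessels, as well as the muscle that erects hairs, hold contractile proteins such as Acta2 and Myh11.

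Upstream sequences are shown for 4 members that differed between the sorts, Eng and Vegfc, which were higher in EGFP cells, and the receptors Flt1 and Tek, which were lower. They were picked after the values were seen, from the 20 of 34 members with an entry in the RefSeq promoter table (GRCm38.p6, the mm10 assembly), and each is the 250 bases just before the annotated start, 5′ to 3′, with no annotated exon inside. Capitals mark the ETS core, GGAA or, on the other strand, TTCC.
Eng, chr2:32646345-32646594, plus strand: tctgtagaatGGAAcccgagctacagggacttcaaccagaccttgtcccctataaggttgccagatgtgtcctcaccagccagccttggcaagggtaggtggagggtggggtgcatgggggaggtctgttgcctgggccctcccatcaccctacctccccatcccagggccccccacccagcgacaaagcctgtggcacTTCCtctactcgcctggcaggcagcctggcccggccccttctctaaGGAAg
Vegfc, chr8:54077282-54077531, plus strand: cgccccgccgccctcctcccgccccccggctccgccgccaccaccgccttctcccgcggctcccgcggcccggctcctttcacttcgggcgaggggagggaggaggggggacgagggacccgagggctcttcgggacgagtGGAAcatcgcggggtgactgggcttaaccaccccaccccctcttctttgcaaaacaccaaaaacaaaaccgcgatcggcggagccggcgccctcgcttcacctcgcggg
Flt1, chr5:147726012-147726261, minus strand: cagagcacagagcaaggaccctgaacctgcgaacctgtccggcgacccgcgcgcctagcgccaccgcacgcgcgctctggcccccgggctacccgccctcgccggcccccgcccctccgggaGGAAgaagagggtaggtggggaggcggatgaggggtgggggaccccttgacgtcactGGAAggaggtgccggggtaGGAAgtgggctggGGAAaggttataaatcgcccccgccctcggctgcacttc
Tek, chr4:94739039-94739288, plus strand: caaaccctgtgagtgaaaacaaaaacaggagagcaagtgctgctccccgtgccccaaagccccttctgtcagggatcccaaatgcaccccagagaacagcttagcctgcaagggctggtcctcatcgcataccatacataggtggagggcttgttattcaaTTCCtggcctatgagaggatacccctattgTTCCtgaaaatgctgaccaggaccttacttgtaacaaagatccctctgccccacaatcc
The core occurred 3 times for Eng, once for Vegfc, 4 times for Flt1 and 2 times for Tek. Of 32851 promoters of the same length, 93.4% held at least 1 such core and 54.7% at least 3, so the match is common and marks no binding site. The same windows held 4 CG steps for Eng and 2 for Tek, against 30 for Vegfc and 23 for Flt1, and the median over all promoters was 6.

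The first question is which vascular genes are read in EGFP cells at all. Over all 4 mice, 4 of the 34 members were higher and 14 lower in EGFP than in tdTomato cells at a limma adjusted p under 0.05, and 16 did not pass. Of all 18070 genes tested, 28.9% passed in either direction, 9.66% higher and 19.2% lower. The higher members were Eng, Vegfc, Angpt2 and Cspg4. The lower ones were 7 pan-endothelial genes (Pecam1, Plvap, Tie1, Tek, Flt1, Cdh5 and Cldn5), the transcription factor genes Sox17 and Fli1, the lymphatic gene Lyve1, the pericyte gene Pdgfrb and the smooth muscle genes Cnn1, Acta2 and Des. The median member stood at -2.83 on the log2(value + 1) scale, and the median of all genes tested at -0.33. Fold changes on that scale understate the change of genes with few reads.

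**Figure D1:**
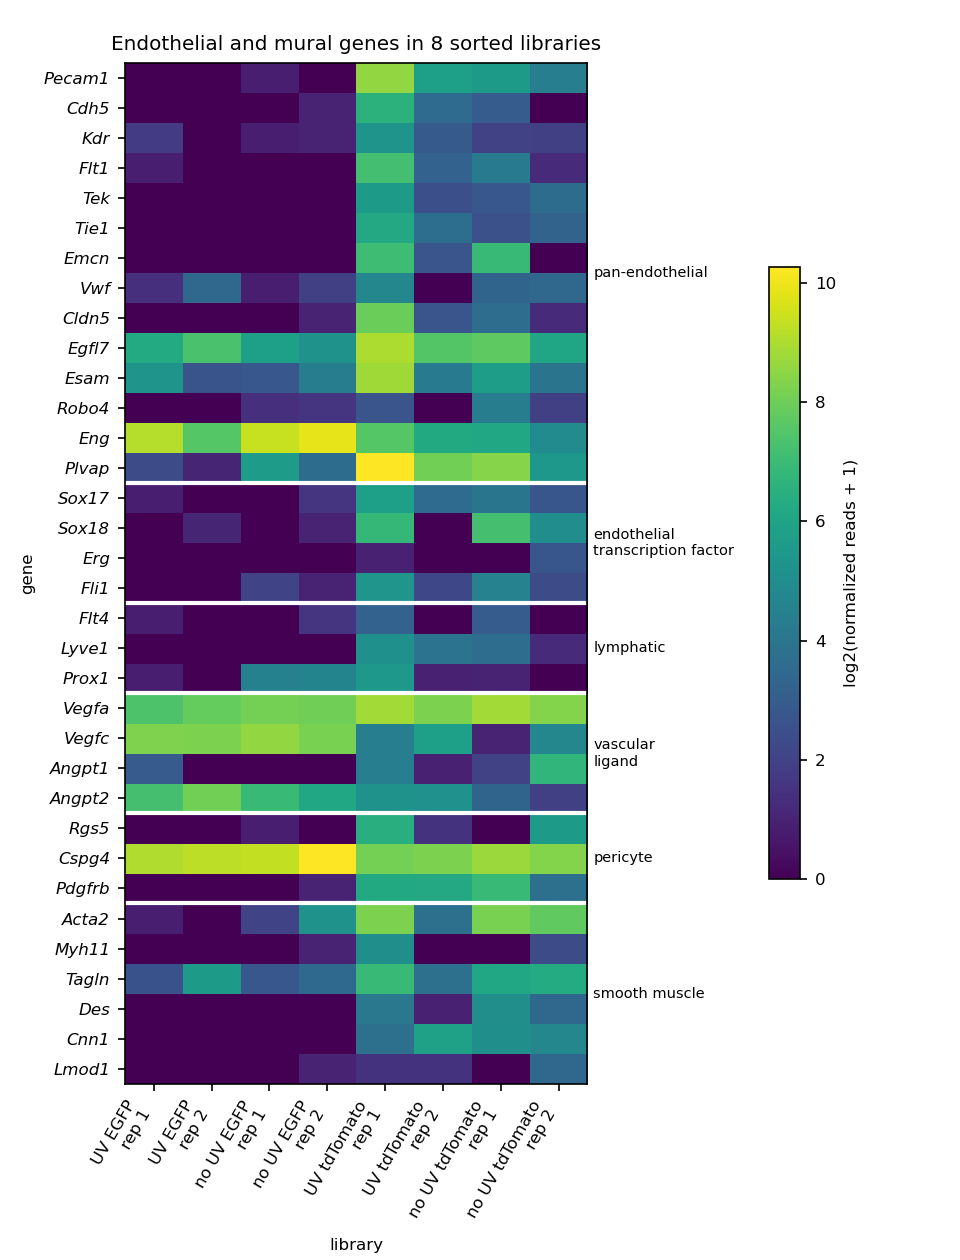
Level of the 34 members (rows, grouped by role) in the 8 libraries (columns), as log2(normalized reads + 1) by colour. Most endothelial, lymphatic and smooth muscle rows are dark in the 4 EGFP columns, while Eng, Vegfc, Angpt2, Cspg4, Vegfa and Egfl7 carry colour there, and UV tdTomato replicate 1 is the brightest tdTomato column for 23 of 34 members.

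Of 4 genes of endothelial junctions, Pecam1, Cdh5 and Cldn5 were lower in EGFP cells and Esam did not pass. Pecam1, an adhesion molecule of endothelial junctions also found on platelets and leukocytes (chromosome 11, 106654217 to 106750628, minus strand, mm10), had 0 and 0 normalized reads in UV EGFP and 0.832 and 0 in no UV EGFP libraries, against 386 and 53.8 in UV tdTomato and 46.9 and 19.98 in no UV tdTomato libraries. Every tdTomato library lay above every EGFP library, and the fold change was -5.87 ± 0.89 (SE; limma adjusted p = 0.00149). Its 541 reads in tdTomato against 1 read in EGFP cells gave a ratio of 608, with a 95% counting interval of 109 to 24054. Cdh5, the cadherin that joins endothelial cells, had 0 and 0 in UV EGFP and 0 and 0.951 in no UV EGFP libraries, against 94.4 and 11.1 in UV tdTomato and 6.85 and 0 in no UV tdTomato libraries. The sorts overlapped for Cdh5 because no UV tdTomato replicate 2 had no read, and the fold change was -3.05 ± 0.94 (limma adjusted p = 0.0418). Cldn5, a tight junction claudin of endothelium, had 0 and 0 in UV EGFP and 0 and 0.951 in no UV EGFP libraries, against 246 and 5.56 in UV tdTomato and 11.7 and 1.43 in no UV tdTomato libraries. Most of its tdTomato signal thus came from 1 library, and its fold change was -3.66 ± 1.18 (limma adjusted p = 0.0484). Esam, another junction adhesion molecule, had 38.6 and 5.39 in UV EGFP and 5.82 and 19.0 in no UV EGFP libraries, against 439.8 and 17.6 in UV tdTomato and 50.9 and 14.3 in no UV tdTomato libraries. The sorts overlapped for Esam, which did not pass (-1.89 ± 1.16, limma adjusted p = 0.268).

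Of 5 receptor genes, Flt1, Tek and Tie1 were lower in EGFP cells, and Kdr and Robo4 did not pass. Flt1, a VEGF receptor, had 0.839 and 0 in UV EGFP and 0 and 0 in no UV EGFP libraries, against 148 and 8.35 in UV tdTomato and 17.6 and 1.43 in no UV tdTomato libraries. It was lower in EGFP cells in every library (-3.76 ± 1.07, limma adjusted p = 0.0293), with a read ratio of 212 between tdTomato and EGFP cells (37.7 to 8432). Tek, the angiopoietin receptor, had no read in any EGFP library, against 46.7 and 4.64 in UV tdTomato and 5.87 and 11.4 in no UV tdTomato libraries. Set against a floor of 3 reads over the 4 EGFP libraries, it was at least 26.2-fold lower there (limma adjusted p = 0.0101). Tie1, its partner receptor, also had no EGFP read, against 72.4 and 12.1 in UV tdTomato and 4.89 and 8.56 in no UV tdTomato libraries, and was at least 38.6-fold lower (limma adjusted p = 0.00494). Kdr, the main signalling VEGF receptor, had 2.52 and 0 in UV EGFP and 0.832 and 0.951 in no UV EGFP libraries, against 38.5 and 6.49 in UV tdTomato and 2.93 and 2.85 in no UV tdTomato libraries. Its sorts did not overlap, yet it missed the threshold (-2.12 ± 0.80, limma adjusted p = 0.0821). Robo4, a guidance receptor of endothelium, had 0 and 0 in UV EGFP and 1.66 and 1.90 in no UV EGFP libraries, against 5.50 and 0 in UV tdTomato and 18.6 and 2.85 in no UV tdTomato libraries, and did not pass (-1.50 ± 0.82).

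Among the other pan-endothelial genes, Plvap, which forms the diaphragms of fenestrated capillaries, was the most abundant member per length in tdTomato cells. It reached 236 ± 262 normalized reads per kb of exon there (SD, n = 4 libraries), against 8.17 ± 11.0 in EGFP cells. Its libraries gave 4.19 and 1.08 in UV EGFP and 48.2 and 11.4 in no UV EGFP cells, against 1228 and 273 in UV tdTomato and 335 and 42.8 in no UV tdTomato cells. The sorts overlapped narrowly, because no UV EGFP replicate 1 exceeded no UV tdTomato replicate 2, and the fold change was -4.88 ± 0.89 (limma adjusted p = 0.00394). Emcn, a sialomucin of capillaries and veins, had no read in EGFP cells, against 136 and 5.56 in UV tdTomato and 124 and 0 in no UV tdTomato libraries. By reads the difference was at least 105-fold, but 1 tdTomato library was at 0 and the limma adjusted p was 0.0772. Vwf, the clotting factor stored by endothelium and platelets, had 1.68 and 9.70 in UV EGFP and 0.832 and 2.85 in no UV EGFP libraries, against 25.7 and 0 in UV tdTomato and 8.80 and 9.99 in no UV tdTomato libraries, and the sorts overlapped. Egfl7, a secreted protein of endothelium whose gene is also the host of a microRNA, was read in every EGFP library, at 76.3 and 157 in UV EGFP and 54.1 and 37.1 in no UV EGFP cells, against 509 and 183 in UV tdTomato and 211 and 67.1 in no UV tdTomato cells. It did not pass (-1.43 ± 0.54, limma adjusted p = 0.0827).

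Of the 4 endothelial transcription factor genes, Sox17 and Fli1 were lower in EGFP cells, and Sox18 and Erg did not pass. Sox17, a SoxF factor of arteries, had 0.839 and 0 in UV EGFP and 0 and 1.90 in no UV EGFP libraries, against 55.0 and 11.1 in UV tdTomato and 14.7 and 5.71 in no UV tdTomato libraries (-3.43 ± 0.84, limma adjusted p = 0.0154). Fli1, an ETS factor of endothelium and blood cells, had 0 and 0 in UV EGFP and 3.33 and 0.951 in no UV EGFP libraries, against 39.4 and 3.71 in UV tdTomato and 22.5 and 4.28 in no UV tdTomato libraries (-2.86 ± 0.93, limma adjusted p = 0.0495). For both genes all tdTomato libraries lay above all EGFP libraries. Sox18, a SoxF factor of blood and lymphatic vessels and hair follicles, had 0 and 1.08 in UV EGFP and 0 and 0.951 in no UV EGFP libraries, against 115 and 0 in UV tdTomato and 149.7 and 31.4 in no UV tdTomato libraries. Its read ratio was 169 (46.3 to 1398), yet UV tdTomato replicate 2 had none and the limma adjusted p was 0.0558. Erg, an ETS factor of endothelium, had only 5 reads, all in tdTomato cells, and is too sparse for a statement.

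The lymphatic genes did not move as a block. Lyve1, the hyaluronan receptor of lymphatic endothelium that some macrophages also make, had no read in EGFP cells, against 34.8 and 13.9 in UV tdTomato and 11.7 and 1.43 in no UV tdTomato libraries. It was at least 24.7-fold lower in EGFP cells (limma adjusted p = 0.00818). Flt4, the receptor of VEGF-C, had 0.839 and 0 in UV EGFP and 0 and 1.90 in no UV EGFP libraries, against 8.25 and 0 in UV tdTomato and 6.85 and 0 in no UV tdTomato libraries. Its 3 reads in EGFP and 16 in tdTomato cells left it near the limit of detection (limma adjusted p = 0.499). Prox1, the transcription factor that sets lymphatic identity, had 0.839 and 0 in UV EGFP and 21.6 and 23.8 in no UV EGFP libraries, against 43.1 and 0.927 in UV tdTomato and 0.978 and 0 in no UV tdTomato libraries. It was read mainly in both no UV EGFP libraries and in 1 UV tdTomato library, and it did not pass (0.65 ± 1.03, limma adjusted p = 0.666).

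EGFP cells were higher in Vegfc, Angpt2, Eng and Cspg4, and they held Vegfa as well. Vegfc, the ligand that drives lymphatic growth (chromosome 8, 54077606 to 54187096, plus strand), had 305 and 304 in UV EGFP and 384 and 294 in no UV EGFP libraries, against 20.2 and 53.8 in UV tdTomato and 0.978 and 25.7 in no UV tdTomato libraries. The 4 EGFP values lay close together, and the fold change was 4.35 ± 0.80 (limma adjusted p = 0.00416). Angpt2, the Tek ligand that destabilises vessels (chromosome 8, 18690263 to 18741562, minus strand), had 151 and 272 in UV EGFP and 122 and 69.4 in no UV EGFP libraries, against 36.7 and 35.2 in UV tdTomato and 8.80 and 2.85 in no UV tdTomato libraries (3.19 ± 0.58, limma adjusted p = 0.00386). Eng, the TGF-beta co-receptor endoglin (chromosome 2, 32646595 to 32682669, plus strand), had 552 and 186 in UV EGFP and 684 and 947 in no UV EGFP libraries, against 186 and 73.3 in UV tdTomato and 70.4 and 29.97 in no UV tdTomato libraries. The lowest EGFP value of Eng, in UV EGFP replicate 2, was only just above the highest tdTomato value, and the fold change was 2.77 ± 0.49 (limma adjusted p = 0.00336). Cspg4, the proteoglycan NG2 of pericytes and melanocytes (chromosome 9, 56865033 to 56899870, plus strand), had 532 and 607 in UV EGFP and 633 and 1204 in no UV EGFP libraries, against 275 and 300.4 in UV tdTomato and 419.6 and 327 in no UV tdTomato libraries (1.11 ± 0.25, limma adjusted p = 0.011). For each of these genes the sorts did not overlap.

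The remaining ligands were not higher in EGFP cells. Vegfa, the main angiogenic growth factor, had 166 and 228 in UV EGFP and 279 and 263 in no UV EGFP libraries, against 454 and 303 in UV tdTomato and 462 and 329.7 in no UV tdTomato libraries. All EGFP values were below all tdTomato values, but the fold change of -0.72 ± 0.26 missed the threshold (limma adjusted p = 0.0737), as in edgeR on recovered reads (adjusted p = 0.134), while DESeq2 gave an adjusted p of 0.0396. Angpt1, the Tek ligand that steadies vessels, had 6.71 and 0 in UV EGFP and 0 and 0 in no UV EGFP libraries, against 20.2 and 0.927 in UV tdTomato and 2.93 and 108 in no UV tdTomato libraries, and did not pass (-2.79 ± 1.30, limma adjusted p = 0.149). Per length, the order of levels in EGFP cells was Eng at 146 ± 78.2, Vegfc at 131 ± 17.1, Cspg4 at 62.3 ± 25.9, Vegfa at 54.7 ± 11.7, Angpt2 at 41.6 ± 23.2 and Egfl7 at 22.7 ± 14.9 normalized reads per kb of exon (SD, n = 4 libraries). Neighbours in that order lay within their spread, except Vegfc and Cspg4. In tdTomato cells the same 6 genes stood at 22.2 ± 16.6, 10.3 ± 8.91, 27.7 ± 5.29, 90.3 ± 19.2, 5.66 ± 4.76 and 67.8 ± 52.6. Melanocyte marker reads were present in tdTomato libraries too, at 4.11% and 7.22% of the EGFP level of the same mouse with UV and 1.06% and 0.448% without UV, and their part in the tdTomato values of these genes was not tested.

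**Figure D2:**
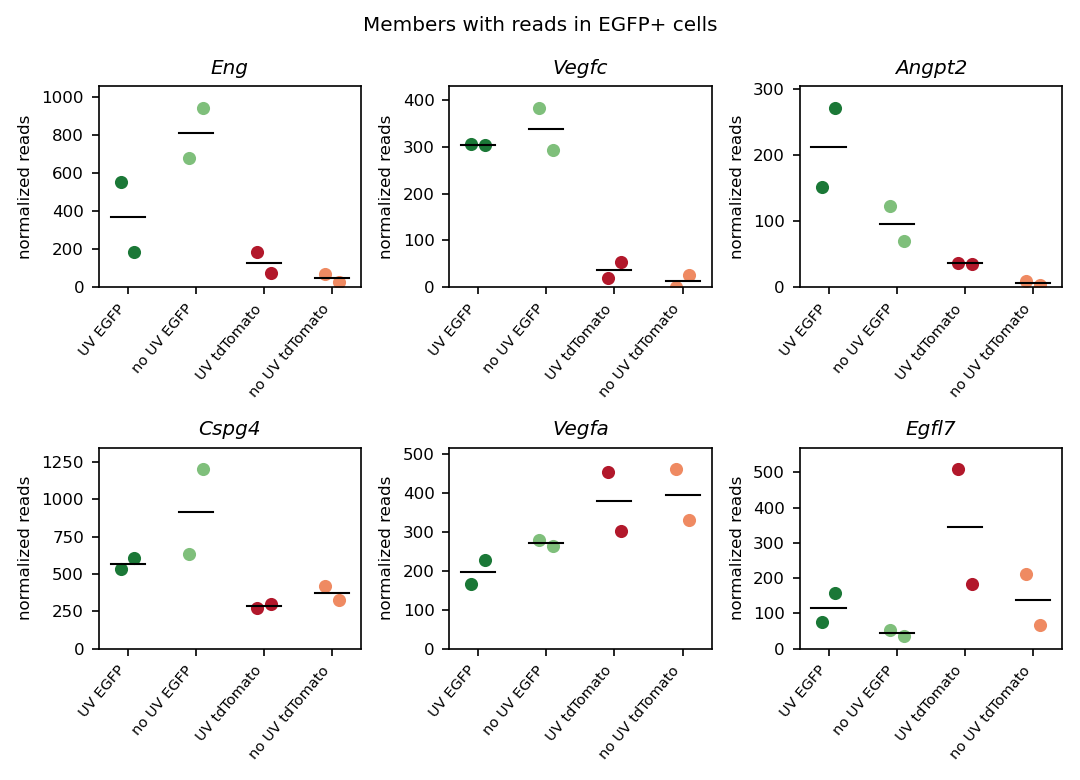
Normalized reads (linear axes from 0) of the 6 members with the highest level per length in EGFP cells, in the groups UV EGFP, no UV EGFP, UV tdTomato and no UV tdTomato; points are libraries and lines are means of 2. Eng, Vegfc, Angpt2 and Cspg4 were above every tdTomato library in every EGFP library, while Vegfa was below.

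Of the 9 pericyte and smooth muscle members, Pdgfrb, Cnn1, Des and Acta2 were lower in EGFP cells, Cspg4 was higher, and Rgs5, Tagln, Myh11 and Lmod1 did not pass. Pdgfrb, the receptor through which pericytes are recruited, had 0 and 0 in UV EGFP and 0 and 0.951 in no UV EGFP libraries, against 73.3 and 72.3 in UV tdTomato and 119 and 12.8 in no UV tdTomato libraries. Its fold change was -5.54 ± 0.89 (limma adjusted p = 0.00209) and its read ratio 325 (57.8 to 12870), and fibroblasts, which also make it, were in the tdTomato sort, where the 6 fibroblast markers summed to 8276 to 17429 against 10.1 to 246 in EGFP cells. Rgs5, a signalling regulator typical of pericytes, had 0 and 0 in UV EGFP and 0.832 and 0 in no UV EGFP libraries, against 87.0 and 1.85 in UV tdTomato and 0 and 47.1 in no UV tdTomato libraries. With 1 tdTomato library at 0 and another near it, Rgs5 did not pass (-3.17 ± 1.42, limma adjusted p = 0.135).

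Cnn1, a calponin of smooth muscle filaments, had no read in EGFP cells, against 12.8 and 58.4 in UV tdTomato and 33.3 and 25.7 in no UV tdTomato libraries. It was at least 48.3-fold lower (limma adjusted p = 0.00165), and it was the smooth muscle gene most even across tdTomato libraries. Des, the intermediate filament of muscle and some pericytes, also had none, against 16.5 and 0.927 in UV tdTomato and 32.3 and 9.99 in no UV tdTomato libraries, and was at least 22.1-fold lower (limma adjusted p = 0.0165). Acta2, smooth muscle actin, had 0.839 and 0 in UV EGFP and 3.33 and 38.0 in no UV EGFP libraries, against 301 and 12.98 in UV tdTomato and 296 and 213 in no UV tdTomato libraries. No UV EGFP replicate 2 exceeded UV tdTomato replicate 2, so the sorts overlapped, and the fold change was -4.93 ± 1.14 (limma adjusted p = 0.0121). Tagln, the actin binding protein transgelin, had 5.03 and 47.4 in UV EGFP and 5.82 and 10.5 in no UV EGFP libraries, against 122 and 12.98 in UV tdTomato and 68.5 and 78.5 in no UV tdTomato libraries, and did not pass (limma adjusted p = 0.133). Myh11, the smooth muscle myosin, had 1 read in EGFP and 40 in tdTomato cells, and Lmod1, an actin nucleator of smooth muscle, 1 and 11. Both were at 0 in at least 1 tdTomato library and neither passed.

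**Figure D3:**
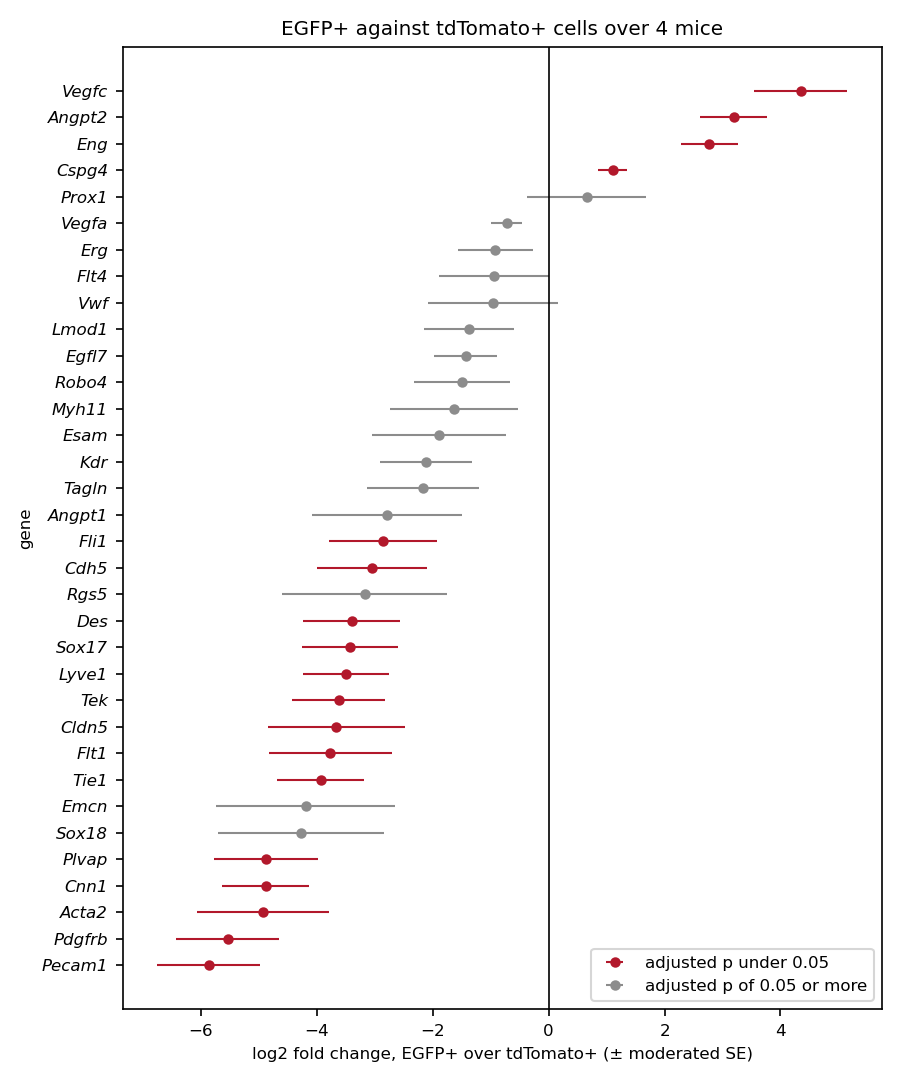
Fold change of each member between EGFP and tdTomato cells over 4 mice, on the log2(normalized reads + 1) scale, with the moderated standard error as bars; red marks an adjusted p under 0.05. Vegfc at 4.35, Angpt2 at 3.19, Eng at 2.77 and Cspg4 at 1.11 stand right of 0, and Pecam1 at -5.87 stands farthest left.

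These calls differed in how far they rested on single libraries. In 8 fits that each left out 1 library, Pecam1, Pdgfrb, Cnn1, Eng, Tie1, Angpt2 and Lyve1 passed in all 8. Plvap was lost without UV tdTomato replicate 1 (limma adjusted p = 0.0507), Vegfc without UV tdTomato replicate 1 (0.0512) or no UV EGFP replicate 1 (0.0584), and Tek without no UV EGFP replicate 1 (0.0572) or replicate 2 (0.0579). Cspg4 was lost without UV tdTomato replicate 1 (0.0664), UV tdTomato replicate 2 (0.0575) or no UV tdTomato replicate 2 (0.0574), and Sox17 without UV tdTomato replicate 1 (0.0502), no UV tdTomato replicate 1 (0.0632) or no UV EGFP replicate 1 (0.0706). Acta2 and Des were each lost in 4 fits, with their highest values, 0.106 and 0.0849, when no UV tdTomato replicate 1 was absent. Flt1 was lost in 5 fits (up to 0.138), Cdh5 in 6 (up to 0.168), and Fli1 and Cldn5 in 7 each (up to 0.177 and 0.217). Cdh5 was also lost when mouse entered as a block (0.0511). With both libraries of mouse 1 left out, Pecam1, Tie1, Plvap and Eng were among the members lost. The members lost a larger part of their calls in that fit than all genes did. Under quantile normalization 4 members were higher and 9 lower, and after rescaling without the 20 most abundant genes 4 were higher and 12 lower. Those scalings moved the median of all genes by 0.45 and 0.21 log2 units, and over all genes they gave 2857 higher and 2672 lower, and 2655 higher and 2895 lower, in place of 1746 and 3471. The called members kept their direction under both.

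In the authors' deposited table, which compares the same sorts over all 8 libraries, 20 members were lower, 4 higher and 6 not past an adjusted p of 0.05, and 4 had no adjusted p. The share of all genes called there was not computed, so these counts are not read as a result about the members. The 4 higher members there were the same, with log2 fold changes of 3.57 for Vegfc, 2.77 for Angpt2, 2.66 for Eng and 1.16 for Cspg4 in the authors' deposited table. Emcn at -7.62, Sox18 at -6.23 and Rgs5 at -5.69 passed in the authors' deposited table, but not in the limma fit. So did Angpt1 at -3.56, Kdr at -3.15, Egfl7 at -1.54 and Vegfa at -0.721. Cldn5, lower in limma, was among those without an adjusted p there. edgeR on recovered reads called 4 members higher and 19 lower, and the 5 added to the limma calls were Emcn (adjusted p = 0.0044), Sox18 (0.00447), Rgs5 (0.0187), Egfl7 and Angpt1.

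Other genes of the same pathways were taken from fixed lists. Among 6 tested VEGF and angiopoietin family genes and co-receptors, 1 was higher and 2 lower in EGFP cells. Vegfb, a VEGF family ligand, was higher (2.29 ± 0.18, limma adjusted p = 5.28e-05). Figf, the gene of VEGF-D, was lower (-5.63 ± 0.69, adjusted p = 0.000516), as was the co-receptor gene Nrp2 (-4.21 ± 0.63, adjusted p = 0.00144). Of 22 other endothelial genes 1 was higher and 9 lower. Ets1, an ETS factor, was the higher one (3.13 ± 0.20), and the lower ones included Cav1, the main protein of caveolae (-2.89 ± 0.19), the ephrin ligand gene Efnb2 (-6.04 ± 0.46) and Sox7, the third SoxF factor gene (-8.04 ± 0.65). These genes are made by cells other than endothelium as well, and Cav1 had 4397 to 8183 normalized reads in tdTomato libraries.

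Of 5 other lymphatic genes 2 were higher and 1 lower in EGFP cells. Itga9, an integrin of lymphatic valves, was higher (4.35 ± 0.57), as was Pdpn, the mucin podoplanin (3.13 ± 0.83, limma adjusted p = 0.0223). Reln, which lymphatic endothelium secretes, was lower (-2.73 ± 0.85, limma adjusted p = 0.0429), a call lost with mouse as a block (0.0652). Of 21 other mural genes 1 was higher and 10 lower. Mylk, the kinase that triggers smooth muscle contraction, was higher (3.84 ± 0.42). Tpm2, a tropomyosin of muscle (-6.71 ± 0.26), Ndufa4l2, a mitochondrial protein used as a pericyte marker (-7.51 ± 0.63), and Pdgfb, the ligand of Pdgfrb (-7.20 ± 0.73), were lower. Which cells gave the reads of these listed genes was not tested. The calls of Pdpn and Reln were each lost in 6 of 8 fits without 1 library.

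The contrast between the sorts was next read within each UV arm, and these comparisons share the fit but not the libraries. With UV, 0 members were higher and 10 lower in EGFP cells, against 17.9% of all genes in either direction, 5.03% higher and 12.9% lower. Plvap (-7.46 ± 1.26, limma adjusted p = 0.00501) and Pecam1 (-7.19 ± 1.25, adjusted p = 0.00581) had the smallest adjusted p. The other 8 were Pdgfrb (-6.21 ± 1.26, adjusted p = 0.0116), Tie1 (-4.95 ± 1.06, 0.0146), Cnn1 (-4.84 ± 1.06, 0.016), Lyve1 (-4.53 ± 1.05, 0.0203), Cdh5 (-5.09 ± 1.34, 0.0327), Sox17 (-4.26 ± 1.18, 0.0393), Tek (-4.04 ± 1.14, 0.0424) and Acta2 (-5.58 ± 1.61, 0.0457). Angpt2 stood at 2.46 ± 0.82 there and did not pass (limma adjusted p = 0.0754). Without UV, 4 members were higher and 4 lower, against 19.2% of all genes in either direction, 6.67% higher and 12.5% lower. Eng (4.10 ± 0.70, limma adjusted p = 0.00474), Vegfc (5.54 ± 1.14, adjusted p = 0.0112), Angpt2 (3.92 ± 0.82, adjusted p = 0.012) and Cspg4 (1.23 ± 0.35, adjusted p = 0.0426) were higher. Cnn1 (-4.92 ± 1.06, adjusted p = 0.0138), Pdgfrb (-4.87 ± 1.26, 0.0288), Pecam1 (-4.55 ± 1.25, 0.0366) and Des (-4.26 ± 1.19, 0.0385) were lower. Passing in 1 arm and not in the other does not show a difference between the arms, and the test of that difference is given further on.

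Within an arm most calls were lost in some fit without 1 library. Leaving out a library of the other arm left the fold change as it was, as for Acta2 with UV (-5.58). A loss there came through the spread and the adjustment of p, and does not show that the call rested on that library. With UV, only Pecam1 passed in all 8 fits without 1 library, and 2 members were left without UV tdTomato replicate 1 and 2 without UV EGFP replicate 2. Over all genes the 909 higher and 2331 lower calls also became fewer, at 218 and 775 without UV tdTomato replicate 1 and 547 and 1508 without UV EGFP replicate 2. Cnn1 was lost without UV EGFP replicate 2 alone (limma adjusted p = 0.0587), Plvap without UV tdTomato replicate 1 (0.105) or replicate 2 (0.052), Tie1 without UV EGFP replicate 2 (0.0662) or UV tdTomato replicate 1 (0.0504), and Pdgfrb without UV EGFP replicate 2 (0.0534) or either UV tdTomato library (0.0924 and 0.0803). Acta2 was lost in all 8, up to 0.31, and Cdh5, Sox17, Tek and Lyve1 in at least 5 each. With mouse as a block Tek (0.055) and Sox17 (0.0561) were lost. Under quantile normalization 2 members, Vegfc and Angpt2, were higher and 5 lower with UV, while over all genes it gave 1378 higher and 1674 lower in place of 909 and 2331. Rescaling without the 20 most abundant genes gave 1285 and 2011 over all genes with UV. Without UV no member passed in all 8 such fits, and 0 were left without no UV EGFP replicate 2 and 1 without no UV EGFP replicate 1. Over all genes these fits gave 422 higher and 976 lower without no UV EGFP replicate 2, and 733 and 1283 without no UV EGFP replicate 1. Eng was lost in 3 of them (up to 0.0897), Angpt2 in 3 (up to 0.0862), Vegfc in 3 (up to 0.131), and Cnn1 in 2 (up to 0.0827). Cspg4 was lost in 6 (up to 0.205), Des in 5 (up to 0.187), Pecam1 in 4 (up to 0.187) and Pdgfrb in 4 (up to 0.153). With mouse as a block Pecam1 (0.052), Pdgfrb (0.0537) and Cspg4 (0.0633) were lost without UV. Quantile normalization gave 5 higher members without UV, with Prox1 as the added one, and 2 lower, while over all genes it gave 2013 higher and 1909 lower in place of 1206 and 2262. Rescaling gave 1804 and 1806 over all genes without UV.

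No member passed the threshold for a UV change in tdTomato cells. Of the 34 members 0 passed in limma, and 0 in edgeR and 0 in DESeq2, while 0.559% of all genes passed in limma. At an unadjusted limma p under 0.05 there were 2. Angpt2 (36.7 and 35.2 with UV, against 8.80 and 2.85 without) had a fold change of 2.59 ± 0.82 (limma adjusted p = 0.229). Cdh5 had a fold change of 3.60 ± 1.34 (limma adjusted p = 0.295). For 7 members (Pecam1, Cdh5, Kdr, Tie1, Eng, Lyve1 and Angpt2) both UV libraries lay above both no UV libraries, and for 1 (Cspg4) both lay below. Over all genes tested those shares were 21.6% and 24.5%. The melanocyte markers, all 8 of them read in every tdTomato library, summed to 23228 and 44454 with UV against 5571 and 2616 without UV, higher in both UV libraries, as Angpt2 was, and their part in its values was not tested.

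UV tdTomato replicate 1 stood above the other tdTomato libraries for many members. It was the highest of the 4 tdTomato libraries for 23 of 34 members, against 23.3% of all genes tested. It was so for 18 of 21 endothelial and lymphatic members, 4 of 9 mural members and 1 of 4 ligands. The ratio of UV tdTomato replicate 1 to the next library varied widely between these genes. It was 8.65 for Esam, 8.48 for Cdh5, 8.38 for Flt1 and 7.17 for Pecam1, larger for Cldn5 and Prox1, and close to even for Emcn. The library of the other mouse given UV lay nearer to those without UV for these genes, and UV tdTomato replicate 2 had 53.8 for Pecam1, against 46.9 in no UV tdTomato replicate 1, and 5.56 for Cldn5, against 11.7. The 20 endothelial, transcription factor and lymphatic members other than Eng summed to 3672 and 610.2 normalized reads with UV, against 1051 and 231 without UV. The same library was highest in platelet markers: of 6, it held reads of 4, and their sum was 925 and 107 with UV against 108 and 28.5 without UV. Gp9 and Treml1 of that list had no read in any tdTomato library, and Pf4 gave 825 and 67.7 with UV against 51.8 and 5.71 without UV. Leukocyte markers followed another order, at 2051 and 878 with UV against 7163 and 1434 without UV, and the part of either in the endothelial values was not tested. Smooth muscle markers (Myh11, Cnn1, Lmod1 and Acta2) summed to 349 and 73.3 with UV against 329.6 and 253 without UV, so the same library was highest there too, but close to no UV tdTomato replicate 1.

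**Figure D4:**
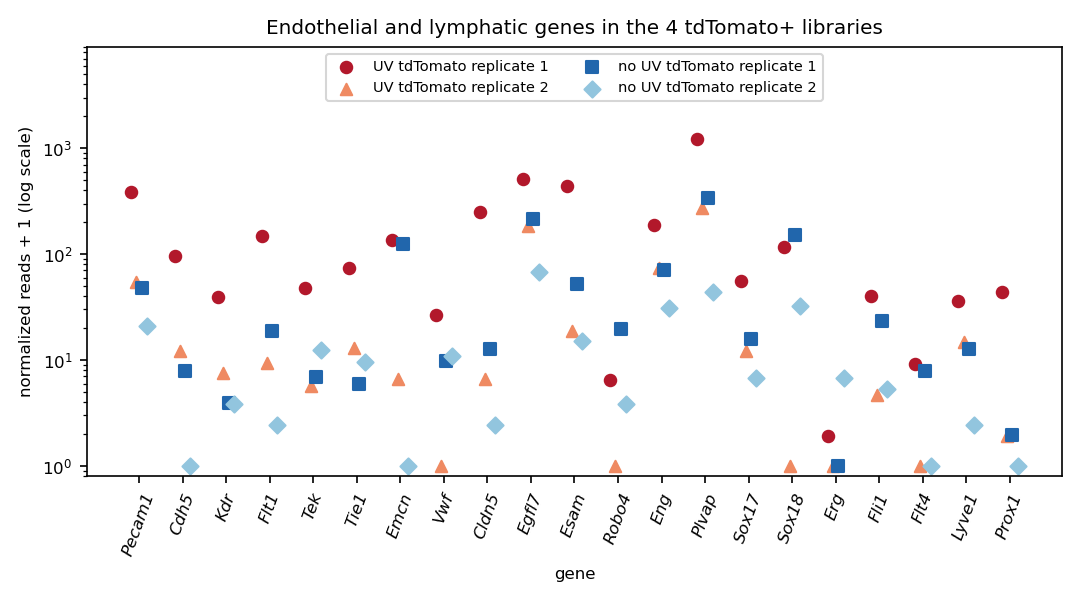
Normalized reads + 1 (log axis) of the 21 endothelial, transcription factor and lymphatic members in the 4 tdTomato libraries, with symbols set side by side within a gene. Red circles, UV tdTomato replicate 1, are the highest for 18 of 21 genes, while the orange triangles of UV tdTomato replicate 2 lie above both no UV libraries (blue) for Pecam1, Cdh5, Kdr, Tie1, Eng and Lyve1 and not for the other genes.

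No member passed for a UV change in EGFP cells either. In limma 0 of 34 passed, as in edgeR (0) and DESeq2 (0), and 0.0166% of all genes passed in limma. At an unadjusted limma p under 0.05 there were 2. Prox1 had a fold change of -4.13 ± 1.45 (limma adjusted p = 0.397), with 0.839 and 0 with UV against 21.6 and 23.8 without UV. Plvap had a fold change of -2.91 ± 1.26 (limma adjusted p = 0.48), with 4.19 and 1.08 with UV against 48.2 and 11.4 without UV. For 8 members (Robo4, Eng, Plvap, Fli1, Prox1, Vegfa, Cspg4 and Acta2) both UV EGFP libraries lay below both no UV EGFP libraries, and for 2 (Egfl7 and Angpt2) both lay above. Over all genes tested those shares were 20.7% and 12.7%. Vegfc, at 305 and 304 with UV against 384 and 294 without UV, overlapped.

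The difference between the UV changes of EGFP and tdTomato cells was tested in the same fit. No member passed in limma (0 of 34, with 0.00553% of all genes) or edgeR (0), and 1 passed in DESeq2. That member was Plvap, with a difference of -5.45 (DESeq2 adjusted p = 0.0301), against -5.17 ± 1.79 in limma (adjusted p = 0.404). Prox1 had a difference of -6.84 ± 2.05 (limma adjusted p = 0.361) and Eng one of -2.65 ± 0.98 (limma adjusted p = 0.446). Eng had 552 and 186 in UV EGFP against 684 and 947 in no UV EGFP cells, and 186 and 73.3 in UV tdTomato against 70.4 and 29.97 in no UV tdTomato cells. Its libraries thus did not overlap in either sort, and lay lower with UV in EGFP cells and higher with UV in tdTomato cells. Of all genes tested, 20.7% lay lower in this way in EGFP cells and 21.6% higher in tdTomato cells. The share that did both was not computed. With 2 mice in each arm, and 1 of the 2 mice without UV of another sex, a UV change in these genes was not detectable unless it was large against this spread.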

How the data were processed

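EGFP and tdTomato cells of 4 mice gave 8 libraries from 1 µg of RNA each, poly(A) selected with the TruSeq RNA v2 kit, per the labels' protocols, which does not mark strand. The deposited signal values are normalized reads per gene, 1 column per library, per the file headers. Per the submitters' processing notes, the tools were DESeq2 1.14.1, Cufflinks 2.2.1, TopHat2 2.0.12 and FastQC, with the mm10 build, and the counter and annotation were not given in the sources used here. Without strand, overlapping genes cannot be told apart. The deposited table also holds the authors' own comparison: log2 fold changes, a test score and p-value columns, per the file headers. Of its 24421 genes, 3897 had no read, 27 had a date as symbol and 4 rows shared a symbol. Whole reads were recovered from the normalized values: 195368 of 195368 (100%) lay within 0.01 of a whole number. Read totals ran from 11186363 to 16711981.

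The test was limma 3.58.1 (R 4.3.3) on log2(value + 1), fitted to all 8 libraries with 1 mean per group and trended moderation (4 residual degrees of freedom, a median of 8.40 after moderation). A gene was tested where some group had a mean of 1 or more (18070 genes), p was adjusted over all of these by Benjamini-Hochberg, and the threshold was 0.05. Each group held 2 mice. The p-values rest on a spread pooled over the 4 groups and moderated toward the trend over all genes tested. The main fit treated the EGFP and tdTomato libraries of a mouse as independent. edgeR 4.0.16 and DESeq2 1.42.0 on recovered reads were alternatives, and called 1892 higher and 3163 lower (edgeR) and 2112 higher and 3577 lower (DESeq2) over all mice. Scripts were tested on simulated data. Other settings were a pseudocount, filters, 2 scalings, only the libraries compared, and leaving out a library or mouse 1. Levels per kb used GENCODE exon lengths (mm10). Genes at 0 reads were set against 3 reads over a sort, and genes with 1 to 3 reads given a ratio with a 95% exact interval. Both cover counting error only.

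EGFP and tdTomato libraries of a mouse share the animal and so are paired; across genes, their deviations from the group mean correlated at 0.0562 (mice 3 and 4) and 0.0873 (mice 1 and 2). Every member is named, and those that passed are given with adjusted p and with a fold change or, over all mice and where EGFP cells had 0 reads, a bound by reads. Of each companion list, up to 4 called genes with the smallest p over all mice were named. The members and lists were chosen with earlier results of these data known.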

Additional observations from a re-analysis of the deposited data

Results flagged for a closer look

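For 40 sets of 4 libraries (a member with a mean of at least 10 in a sort), the gap between the extreme library and its neighbour was set against the whole range. In 13 sets it exceeded Dixon's 95% critical value, which 4 independent normal values do in about 1 in 20. These sets hold reads on a linear scale, join mice with and without UV, and share their libraries. That rate is therefore no background for them, and the share over all genes was not computed. The mean of at least 10 also counted the extreme library, so a high value could admit its own set. Without that library the mean was below 10 for Cdh5, Kdr, Flt1, Tek, Tie1, Cldn5 and Prox1 in tdTomato cells. The same held for Acta2 and Tagln in EGFP cells, so these flags partly follow from the filter. In tdTomato cells 9 of the 13 came from UV tdTomato replicate 1: Pecam1 at 386 normalized reads, Cdh5 at 94.4, Kdr at 38.5, Flt1 at 148, Tek at 46.7, Tie1 at 72.4, Cldn5 at 246, Esam at 439.8 and Prox1 at 43.1. All 9 were high values of endothelial or lymphatic genes. In EGFP cells the high values were Vegfc at 384 in no UV EGFP replicate 1, Cspg4 at 1204 and Acta2 at 38.0 in no UV EGFP replicate 2, and Tagln at 47.4 in UV EGFP replicate 2.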

How the results depend on the processing

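Over all mice the 18 calls became 9 to 19 when 1 library was left out, with 9 without no UV EGFP replicate 1 and 9 without UV tdTomato replicate 1, and 7 without mouse 1. Without UV the 8 calls became 0 to 10 when 1 library was left out (4 without no UV tdTomato replicate 2), 2 without mouse 1, 3 without a filter and 5 with mouse as a replicate block. With UV the 10 calls became 2 to 8 when 1 library was left out, 2 without mouse 1, 3 without a filter and 3 in a fit of only the libraries compared. Without mouse 1 each sort kept 1 library without UV, and calls for UV became more numerous over all genes. Calls for UV in that fit, Lmod1 among them, are thus not read as results about the members. DESeq2 on all libraries gave 1 member for the difference between the UV changes, against 83 higher and 203 lower over all genes. The cause was not tested. With mouse as a replicate block the calls were 17 over all mice and 9 with UV. Over all genes the fit without a filter, on 24421 genes, gave 897 higher and 1696 lower without UV and 573 and 1497 with UV. The fit of only the libraries compared gave 550 and 1442 with UV, and the mouse block 1169 and 2119 without UV. The main fit gave 1206 and 2262 without UV and 909 and 2331 with UV. Calls over all genes also changed without 1 library or mouse 1. Member counts there are thus not read apart from those over all genes. With the replicate number as a block, which joins different mice, the UV comparisons kept 0 calls. Rescaling without the 20 most abundant genes moved 4 sums of members by more than 1 SD: transcription factor genes to 4.39 and lymphatic genes to 29.7 in no UV EGFP replicate 2, and ligands to 438 and 418 in no UV tdTomato replicates 1 and 2. Of the values of called genes and of 8 further named ones, 0 changed direction, 1021 kept their side of the threshold, 258 lost a call and 2 gained one. Among all members not called by limma, edgeR called 5 over all mice, 4 with UV and 2 without UV, and DESeq2 8, 7 and 4. Over all genes edgeR gave 1077 higher and 2032 lower with UV, and 1248 and 1981 without UV. DESeq2 gave 1402 and 2641 with UV, and 1528 and 2540 without UV. The share of all genes gained was not computed. Values of uncalled members changed sign in 7 cases over all mice, 14 in the UV arm and 11 in the other, none with an adjusted p below 0.333. For UV, values changed sign in 32 of 602 cases in tdTomato cells and 24 of 580 in EGFP cells. Between the UV changes 40 of 598 did so, Lmod1 without mouse 1 among them. In a fit without 1 library the lone mouse left is assumed to vary like the other groups. At these depths a gene with a few reads a library, such as Erg, Flt4 or Lmod1, gives no firm difference.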

Other observations

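Among the genes listed as mural outside the 34 members, Ndufa4l2 stood apart by UV in tdTomato cells, and it was picked after its values were seen. It gave 104 and 67.7 normalized reads with UV against 2036 and 2074 without UV. Its fold change was -4.60 ± 0.90 and its limma adjusted p 0.0771, which missed the threshold of 0.05. In EGFP cells it was near 0 in both arms, at 1.68 and 0 with UV and 1.66 and 2.85 without UV.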
